A study of Vitis vinifera with 6 samples.

Results

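A set of 67 genes was higher in a single bud pool, 4X replicate 1, than in every other library of a comparison between diploid and autotetraploid grapevine. It was chosen from the expression values themselves. On the scale of log2(FPKM + 1), where FPKM is the number of sequenced fragments scaled by transcript length and library size, 4X replicate 1 lay more than 1 above the highest of the other 5 libraries, and none of those 5 was listed at exactly 0. The 67 genes were 0.37% of the 18119 genes tested, out of 29971 listed. A gene was tested if its 6 libraries averaged 1 FPKM or more. Because the gap chose the genes, its size is given as a description, without a test.

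The tetraploid (4X) is an autotetraploid of the diploid grapevine ‘Jingyanjing’ (2X), obtained by treating stems from tissue culture with colchicine. Both carry the genome of the same Vitis vinifera accession, and all vines received the same standard care. RNA was sequenced from terminal buds in 3 libraries of each ploidy, each a biological replicate pooled from buds of several vines, taken roughly a week ahead of bud shedding in 4X. A library is thus a pool of whole buds, in which fewer cells of a type and less RNA per cell cannot be told apart.

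A grapevine terminal bud holds the shoot apical meristem and the young leaves folded around it. When a shoot tip is shed, an abscission zone forms at its base, where cell walls are loosened and defence genes are often switched on. Ethylene promotes this step and auxin opposes it, and abscisic acid (ABA) is a hormone of water stress and dormancy. Plant genomes carry many families of neighbouring gene copies, and such copies are common among genes of cell walls, defence and specialised metabolism.

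In each library 17816 to 18058 genes reached 1 FPKM. The table holds no counts, so the depth behind a single value is unknown. Over all genes tested, the median difference of 4X replicate 1 from the mean of the other 5 libraries was -0.01 on the log2 scale, and 4X replicate 1 was the highest of the 6 libraries in 18.6% of genes. Genes are listed without product names, so the bud could not be checked against markers of its cell types. A single gene of that kind had a name, VIT_18s0001g08380 (KNAP2), known in apple as a KNOTTED1-like homeobox gene of shoot meristems. It stood at 56.8 FPKM in 4X replicate 1, 53.6 and 43.2 in 4X replicates 2 and 3, and 87.3, 63.6 and 80.8 in 2X, so it was present in every library.

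The 67 genes together summed to 5706 FPKM in 4X replicate 1. Their sum was 1549 and 1673 FPKM in 4X replicates 2 and 3, and 1595, 1794 and 1329 FPKM in the 2X libraries. They took 0.507% of all FPKM in 4X replicate 1 and between 0.119% and 0.164% in each other library. The gap above the highest other library ran between 1.00 and 2.22 with a median of 1.28. As a ratio of FPKM, 4X replicate 1 stood 2.09 to 9.05 times over the mean of the other 5 libraries, with a median of 3.90. The gap was 1.2 or less in 28 genes, over 1.5 in 17 and over 2 in 3. The genes covered a wide range of levels, between 3.62 and 997 FPKM in 4X replicate 1, where 15 exceeded 100 FPKM and 12 were under 10 FPKM. In 66 of the 67 the other 5 libraries also averaged 1 FPKM or more, and in 11 at least 1 of those libraries was under 1 FPKM.

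The same rule was applied to each library in turn, to place the count. Besides the 67 genes of 4X replicate 1, it found 3 in 4X replicate 2, 27 in 4X replicate 3, 1 in 2X replicate 1, 0 in 2X replicate 2 and 22 in 2X replicate 3. Turned round, it found 5 genes lowest in 4X replicate 1, against 18 in 4X replicate 2, 2 in 4X replicate 3, 16 in 2X replicate 1, 2 in 2X replicate 2 and 20 in 2X replicate 3. 4X replicate 1 had the longest list of raised genes and a short list of lowered ones. Genes that met the rule but for a listed 0 in another library were left out, 4 of them in 4X replicate 1, 16 and 20 in 4X replicates 2 and 3, and 6, 12 and 10 in 2X replicates 1, 2 and 3. With these kept, the counts were 71 in 4X replicate 1, 19 and 47 in 4X replicates 2 and 3, and 7, 12 and 32 in 2X, a narrower contrast than without them.

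**Figure D1:**
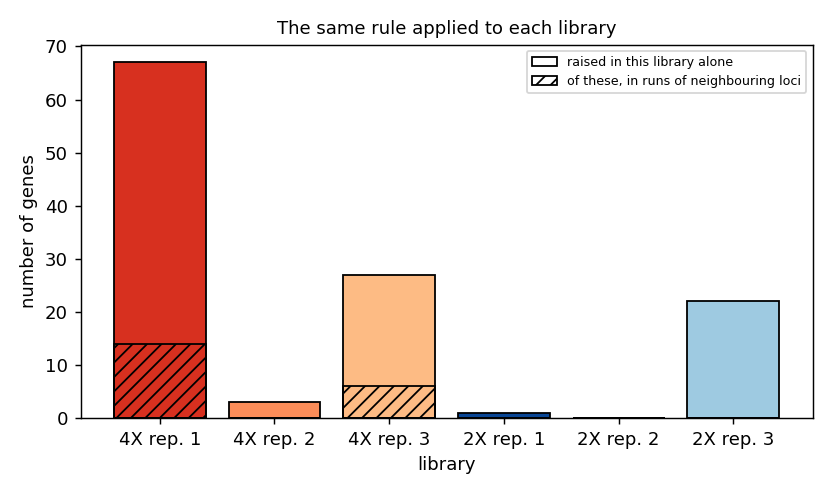
Number of genes (vertical axis) raised in each library alone (horizontal axis) by the same rule, with the hatched part showing those that lay in runs of neighbouring loci. 4X replicate 1 had 67 such genes, 14 of them in runs, and 4X replicate 3 had 27, 6 of them in runs.

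The limit itself cut through a continuous range. Just inside it were VIT_18s0041g01330 with a gap of 1.01, VIT_15s0024g00410 with 1.01 and VIT_03s0038g03430 with 1.00. Just outside were VIT_09s0002g00570 (GLIP2) with 0.99, VIT_08s0007g02360 with 0.98 and VIT_03s0017g01450 with 0.97. GLIP2, known in Arabidopsis as a secreted lipase with a part in defence, had 64.8 FPKM in 4X replicate 1, 20.5 and 23.2 in 4X replicates 2 and 3, and 32.1, 23.9 and 17.4 in 2X.

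VIT_09s0018g00240 had the largest gap, 2.22. It stood at 64.9 FPKM in 4X replicate 1, against 9.81 and 13.1 FPKM in 4X replicates 2 and 3 and 10.9, 9.91 and 5.86 FPKM in 2X. The other 4X and the 2X libraries overlapped. Its gene ontology (GO) terms place it in systemic acquired resistance mediated by salicylic acid, the hypersensitive response and the respiratory burst of defence. Such terms were at hand for 12 of the 67 genes and a gene name for 2 others, and 53 had neither. The terms come from lists of genes that the study selected as increased in 4X on these same libraries, so their presence is not independent evidence of a direction.

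VIT_03s0088g00810 was the most abundant of the 67 and carries the term extracellular region. It had 997 FPKM in 4X replicate 1, 285 and 253 in 4X replicates 2 and 3, and 97.6, 162 and 89.1 in 2X. All 4X libraries were above all 2X libraries here, with 4X replicate 1 far above the rest. The next in abundance was VIT_00s0802g00010 on an unplaced scaffold, at 579 FPKM in 4X replicate 1, 254 and 284 in 4X replicates 2 and 3, and 284, 280 and 284 in 2X. Apart from 4X replicate 1, its libraries spanned only 1.12-fold, the narrowest range of the 67. VIT_12s0034g01730 followed with 444 FPKM in 4X replicate 1, 217 and 170 in 4X replicates 2 and 3, and 111, 61.6 and 85.4 in 2X, again with no overlap between the ploidies. VIT_16s0050g01250 had 340 FPKM in 4X replicate 1, 111 and 109.7 in 4X replicates 2 and 3, and 119, 152 and 96.2 in 2X, so its other libraries overlapped.

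Several genes with GO terms of cell walls, lipids and defence had the same profile. VIT_05s0094g00360, of the term cell wall macromolecule catabolic process, had 66.3 FPKM in 4X replicate 1, 8.98 and 15.8 in 4X replicates 2 and 3, and 13.2, 17.9 and 10.9 in 2X. VIT_17s0000g07420, of the term lipase activity, had 13.6 FPKM in 4X replicate 1, 3.35 and 2.42 in 4X replicates 2 and 3, and 3.01, 3.17 and 1.93 in 2X. For both, 4X replicate 1 was the exception and the remaining libraries overlapped. VIT_01s0011g05190, of the term defense response, had 189 FPKM in 4X replicate 1, 37.5 and 69.5 in 4X replicates 2 and 3, and 84.1, 66.5 and 46.9 in 2X.

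Other genes followed 4X replicate 3 in part. VIT_04s0023g02480, of the term response to acid chemical, had 133 FPKM in 4X replicate 1, 19.9 and 60.0 in 4X replicates 2 and 3, and 12.96, 27.0 and 12.4 in 2X. VIT_05s0062g00250, of the term extracellular region, had 22.3 FPKM in 4X replicate 1, 2.57 and 10.2 in 4X replicates 2 and 3, and 3.98, 3.92 and 7.90 in 2X. In both, 4X replicate 3 came next after 4X replicate 1, while 4X replicate 2 lay among or below the 2X libraries.

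A pair of genes shared the name HAV22A, which stands among ABA-related genes. VIT_03s0132g00070 had 120 FPKM in 4X replicate 1, 30.4 and 33.03 in 4X replicates 2 and 3, and 36.4, 40.5 and 16.3 in 2X. VIT_03s0038g01650 had 25.7 FPKM in 4X replicate 1, 7.65 and 8.27 in 4X replicates 2 and 3, and 9.85, 9.06 and 4.66 in 2X. In both, 4X replicate 1 was the highest library, 2X replicate 3 the lowest, and 4X replicates 2 and 3 lay between the 2X libraries.

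Further genes with large gaps had no annotation. VIT_06s0080g00780 had 45.4 FPKM in 4X replicate 1, 7.88 and 9.31 in 4X replicates 2 and 3, and 8.51, 13.9 and 5.66 in 2X. VIT_17s0000g01630 had 26.8 FPKM in 4X replicate 1, 5.505 and 8.11 in 4X replicates 2 and 3, and 4.95, 6.30 and 2.09 in 2X. In each, 2X replicate 3 was the lowest library. VIT_02s0025g01240, VIT_01s0011g04650, VIT_13s0067g02630 and VIT_05s0020g04420 had gaps of 1.59, 1.53, 1.48 and 1.47.

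**Figure D2:**
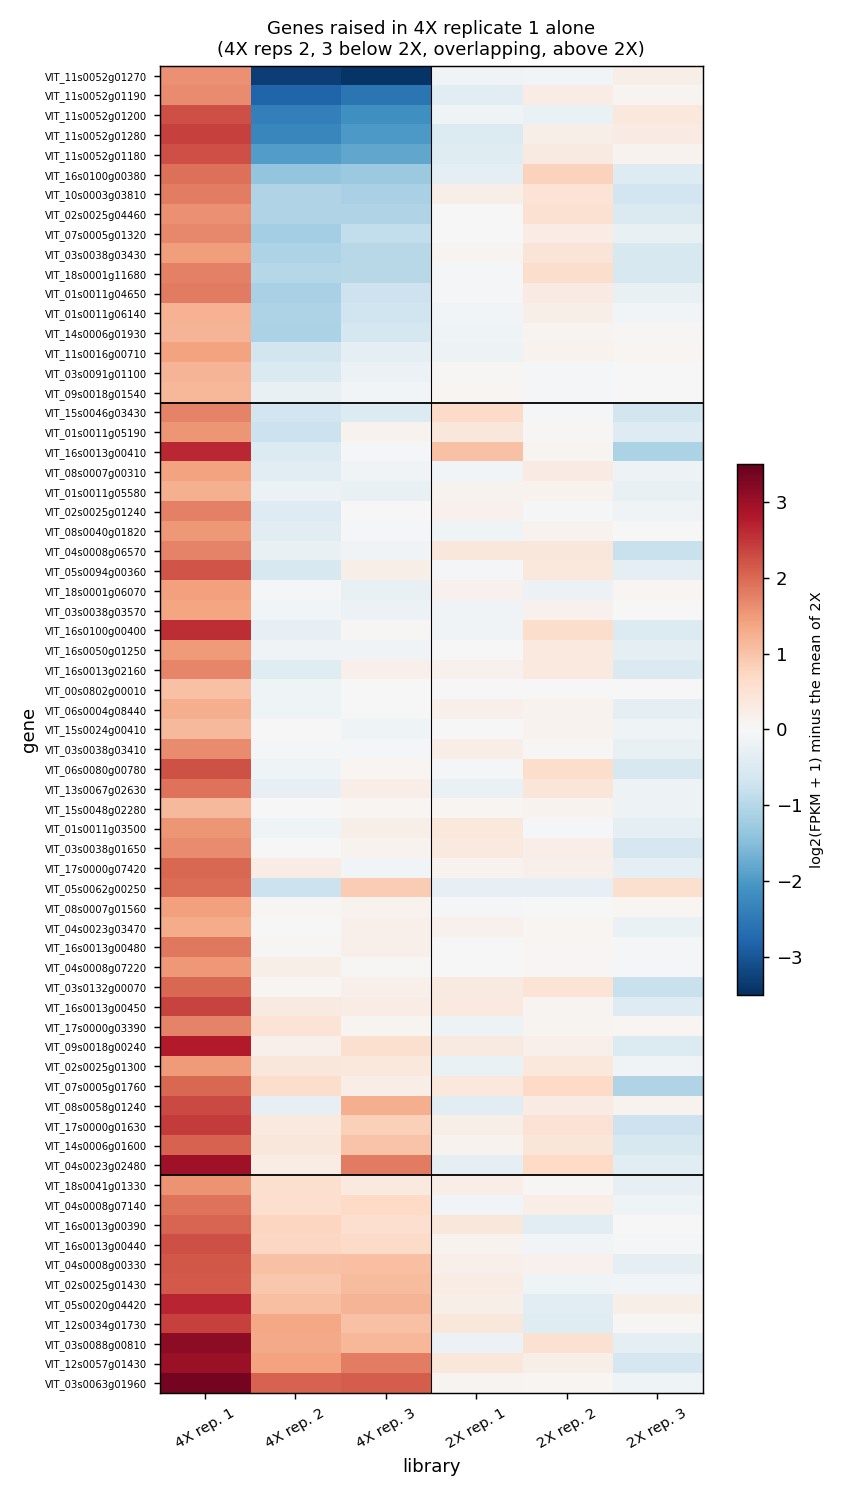
The 67 genes (rows) in the 6 libraries (columns), coloured by log2(FPKM + 1) minus the mean of the 3 2X libraries. Lines divide the 17 genes with 4X replicates 2 and 3 below every 2X library (top), the 39 with overlap and the 11 with both above (bottom), and the column of 4X replicate 1 is red throughout by the rule.

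The 67 genes lay on 18 of the 19 chromosomes, as read from their identifiers, and 1 was unplaced. Chromosome 16 held 9 of them (1.40% of its tested genes), chromosome 3 held 8 (1.09%), chromosome 11 held 6 (0.732%) and chromosome 19 none. The identifiers also count loci along each scaffold, and 14 of the 67 genes (20.9%) lay in 5 runs, where a run is a set of the 67 genes on one scaffold at most 5 loci apart. By the same measure 6 of the 27 genes raised in 4X replicate 3 alone (22.2%) lay in 2 runs, and the 22 genes of 2X replicate 3 held no run. No run was found in the other libraries either, but their 3, 1 and 0 genes left little or no room for it. Whether the genes of a run are copies of each other could not be checked, because no product name or protein sequence was matched to the identifiers.

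The run with the most of these genes was on chromosome 16, scaffold 0013. It held VIT_16s0013g00390, VIT_16s0013g00410, VIT_16s0013g00440, VIT_16s0013g00450 and VIT_16s0013g00480. Together they summed to 109 FPKM in 4X replicate 1, 25.4 and 25.3 in 4X replicates 2 and 3, and 27.1, 17.5 and 13.97 in 2X. The 4 loci listed between them were at 0 in all 6 libraries. Tested loci on either side had gaps between -1.50 and 0.02, so 4X replicate 1 did not stand apart beyond the borders of the run.

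Within that run the other 5 libraries behaved differently from gene to gene. VIT_16s0013g00450, with a gap of 2.02, had 29.4 FPKM in 4X replicate 1, 6.34 and 6.11 in 4X replicates 2 and 3, and 6.52, 5.35 and 3.37 in 2X. VIT_16s0013g00440 had 20.3 FPKM in 4X replicate 1, 6.25 and 6.05 in 4X replicates 2 and 3, and 3.85, 3.16 and 3.28 in 2X. At VIT_16s0013g00450 4X replicates 2 and 3 overlapped with 2X, while at VIT_16s0013g00440 and VIT_16s0013g00390 they were above every 2X library. VIT_16s0013g00410 was the most variable, with 28.1 FPKM in 4X replicate 1, 2.35 and 3.60 in 4X replicates 2 and 3, and 8.57, 3.97 and 1.17 in 2X. VIT_16s0013g00480 was the lowest and the most even, with 7.92 FPKM in 4X replicate 1 and between 1.34 and 1.77 FPKM in the other 5 libraries.

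A second pair on chromosome 16 lay on scaffold 0100. VIT_16s0100g00400 had 68.7 FPKM in 4X replicate 1, 8.52 and 10.9 in 4X replicates 2 and 3, and 9.76, 16.7 and 7.27 in 2X. VIT_16s0100g00380 had 89.8 FPKM in 4X replicate 1, 8.19 and 8.57 in 4X replicates 2 and 3, and 17.8, 40.2 and 16.3 in 2X. In both, 2X replicate 2 came next after 4X replicate 1. None of the tested loci beside this pair had 4X replicate 1 as its highest library, and their gaps ran between -0.51 and -0.21.

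On chromosome 3, scaffold 0038, the pair VIT_03s0038g03410 and VIT_03s0038g03430 stood beside VIT_03s0038g03400 (HCHIB), a basic chitinase in Arabidopsis and a common marker of the ethylene response. VIT_03s0038g03410, with terms of the MAPK cascade, innate immune response and leaf morphogenesis, had 73.5 FPKM in 4X replicate 1, 21.8 and 21.9 in 4X replicates 2 and 3, and 26.9, 23.1 and 18.6 in 2X. VIT_03s0038g03430 had 219 FPKM in 4X replicate 1, 36.9 and 39.8 in 4X replicates 2 and 3, and 84.6, 109 and 53.1 in 2X. HCHIB had 79.2 FPKM in 4X replicate 1, 29.2 and 67.2 in 4X replicates 2 and 3, and 17.5, 33.9 and 11.52 in 2X. The chitinase gene was thus high in 4X replicate 3 as well, and its gap of 0.23 left it out of the set.

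The runs on chromosome 11 belonged to one stretch of scaffold 0052. Between VIT_11s0052g01180 and VIT_11s0052g01340 the table lists 17 loci, of which 11 were tested and 5 were among the 67 genes. VIT_11s0052g01180, VIT_11s0052g01190 and VIT_11s0052g01200 formed one run, and VIT_11s0052g01270 and VIT_11s0052g01280 the other. 4X replicate 1 was the highest library at 10 of the 11 tested loci, 5 of the 6 outside the set included. The 11 loci summed to 580 FPKM in 4X replicate 1, 21.4 and 24.9 FPKM in 4X replicates 2 and 3, and 210, 266 and 278 FPKM in 2X. The 3 tetraploid pools thus held both the highest and the lowest sums of this stretch, with the diploid pools between them.

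VIT_11s0052g01270 had 142 FPKM in 4X replicate 1, 3.82 and 3.32 in 4X replicates 2 and 3, and 42.4, 42.7 and 53.4 in 2X. VIT_11s0052g01280, with the second largest gap of all (2.11), had 36.0 FPKM in 4X replicate 1, 0.448 and 0.732 in 4X replicates 2 and 3, and 4.03, 7.10 and 7.56 in 2X. VIT_11s0052g01200 had 41.1 FPKM in 4X replicate 1, 0.664 and 0.970 in 4X replicates 2 and 3, and 6.998, 6.49 and 10.4 in 2X. All showed 4X replicate 1 above 2X and the other 4X libraries below it, with no overlap. VIT_11s0052g01190 had 33.9 FPKM in 4X replicate 1, 0.594 and 0.893 in 4X replicates 2 and 3, and 7.67, 12.4 and 10.97 in 2X. VIT_11s0052g01180 had 22.7 FPKM in 4X replicate 1, 0.293 and 0.426 in 4X replicates 2 and 3, and 2.73, 5.16 and 4.42 in 2X. Across these 5 genes 4X replicate 1 stood 3.08 to 5.77 times over the mean of 2X, and the mean of 2X stood 9.74 to 13.9 times over that of 4X replicates 2 and 3. VIT_11s0052g01180, VIT_11s0052g01200 and VIT_11s0052g01280 carry the term extracellular region.

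Loci of the stretch outside the set followed the same order. VIT_11s0052g01260, the most abundant, had 190 FPKM in 4X replicate 1, 5.85 and 7.99 in 4X replicates 2 and 3, and 86.2, 117 and 111 in 2X. VIT_11s0052g01300 had 82.1 FPKM in 4X replicate 1, 2.88 and 3.35 in 4X replicates 2 and 3, and 41.6, 55.2 and 50.8 in 2X. Their gaps of 0.69 and 0.56 were under the limit, although 4X replicates 2 and 3 were again far below 2X. VIT_11s0052g01220 and VIT_11s0052g01250 were the exceptions, since 4X replicates 2 and 3 overlapped with 2X there.

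**Figure D3:**
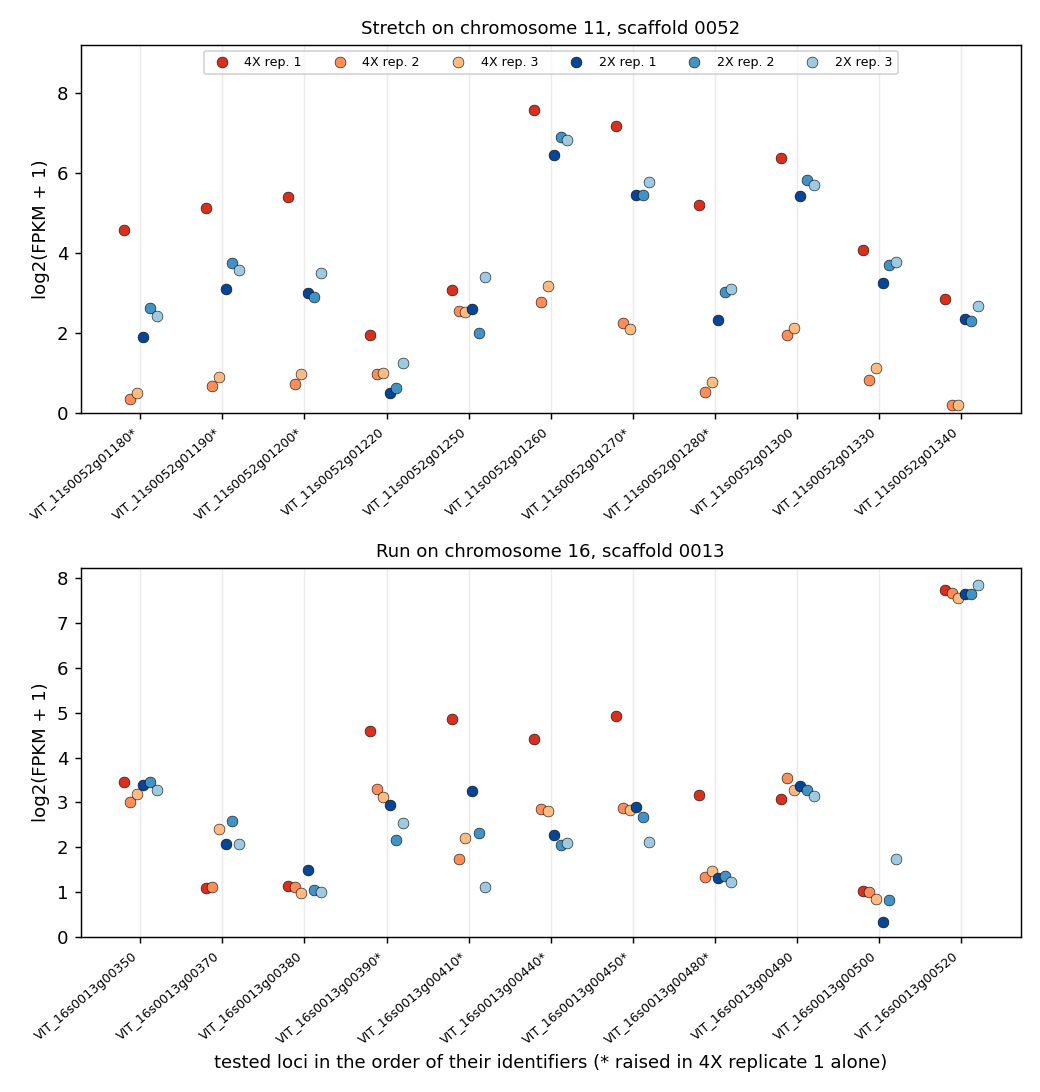
log2(FPKM + 1) of each library (vertical axis) at the tested loci of the chromosome 11 stretch (top) and at the chromosome 16 run with the loci beside it (bottom), in the order of their identifiers (horizontal axis). On chromosome 11 4X replicate 1 is highest at 10 of 11 loci while 4X replicates 2 and 3 are below every 2X library at 9, and on chromosome 16 only the 5 starred genes set 4X replicate 1 apart.

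The rule asks only that 4X replicate 1 exceed the other 5 libraries, whichever ploidy they have. Whether 4X replicates 2 and 3 differed from 2X was therefore tested over all 18119 genes with limma, which fits a linear model to each gene and borrows strength between genes for its variance. Of the 67 genes, 3 rose and 6 fell in 4X replicates 2 and 3 relative to 2X at a Benjamini-Hochberg adjusted p under 0.05, and 58 were not called. Those are 4.48% and 8.96% of the 67, where 1.02% of all genes tested were called higher and 3.14% lower. Of the 6 that fell, 5 were neighbours in a single stretch of chromosome 11, so they are not independent. The 8.96% therefore rests largely on that stretch. At an unadjusted limma p under 0.05, 10 of the 67 were higher and 15 lower, the chromosome 11 neighbours among the 15. Of all 18119 genes tested, 1856 were higher and 1971 lower at that p. The median log2 fold change was -0.06 over the 67 genes and 0.03 over all genes tested, so the middle of the set lay close to that of all genes. Most calls of the 67 genes were lost without 4X replicate 2 and likewise without 4X replicate 3, where 1 library of 4X remains. Without 2X replicate 1, limma called 1 of the 67 higher and 5 lower, against 26 and 139 of all genes tested. Without 2X replicate 3, it called 2 and 10 of the 67, against 268 and 504 of all genes tested.

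The position of the libraries was counted as well. 4X replicates 2 and 3 lay below every 2X library in 17 of the 67 genes (25.4%, against 18.7% of all genes tested) and above every 2X library in 11 (16.4%, against 21.8%). In the other 39 they overlapped, and none of these was called. Of the 17 genes with 4X replicates 2 and 3 below 2X, 5 were the neighbours of the chromosome 11 stretch. Each of the 3 orders occurred among the 67, as it did over all genes tested, and the difference in shares was not tested.

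All 5 genes of the chromosome 11 runs fell. VIT_11s0052g01270 changed by -3.36 on the log2 scale (SE 0.14, limma adjusted p = 0.00145), at a mean of 3.57 ± 0.35 FPKM in 4X replicates 2 and 3, against 46.2 ± 6.27 FPKM in 2X (SD, n = 2 and 3). VIT_11s0052g01190 followed with -2.68 (SE 0.22, limma adjusted p = 0.00538) and VIT_11s0052g01200 with -2.28 (SE 0.22, limma adjusted p = 0.00801). VIT_11s0052g01280 and VIT_11s0052g01180 had -2.15 and -1.88. Because 1 is added to each value, these fold changes understate those of genes under 1 FPKM. Of the 11 tested loci of the stretch, 9 were called lower and VIT_11s0052g01220 and VIT_11s0052g01250 were not. Without 4X replicate 2 or without 4X replicate 3, VIT_11s0052g01270 alone of the 5 genes stayed under the threshold, and the adjusted p of the other 4 reached up to 0.135 by limma.

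The sixth gene that fell was VIT_07s0005g01320, which has no annotation. It had 112 FPKM in 4X replicate 1, 14.4 and 18.3 in 4X replicates 2 and 3, and 34.4, 41.0 and 28.3 in 2X. 4X replicates 2 and 3 were below every 2X library, with a log2 fold change of -1.03 (SE 0.18, limma adjusted p = 0.0371). The call held in 6 of 13 alternative settings, and it was lost without 2X replicate 1, 2X replicate 2, 4X replicate 2 or 4X replicate 3, with a limma adjusted p of up to 0.218.

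Among the genes that rose, VIT_03s0063g01960 changed most. It had 21.6 FPKM in 4X replicate 1, 8.30 and 8.63 in 4X replicates 2 and 3, and 1.37, 1.35 and 0.992 in 2X. The 4X libraries were all above 2X, and the log2 fold change of 4X replicates 2 and 3 was 2.09 (SE 0.16, limma adjusted p = 0.00401), with the call lost without 4X replicate 2 (adjusted p = 0.0593) or 4X replicate 3 (adjusted p = 0.0540). VIT_12s0057g01430 had 43.8 FPKM in 4X replicate 1, 13.7 and 17.9 in 4X replicates 2 and 3, and 6.14, 5.30 and 2.65 in 2X, with a log2 fold change of 1.60 (SE 0.30, limma adjusted p = 0.0467). VIT_02s0025g01430 had 9.60 FPKM in 4X replicate 1, 3.62 and 4.16 in 4X replicates 2 and 3, and 1.84, 1.16 and 1.21 in 2X, with a log2 fold change of 1.03 (SE 0.19, limma adjusted p = 0.0433). The calls of these last genes each held in 5 of 13 alternative settings. Both were lost without 2X replicate 1, 2X replicate 2, 4X replicate 2 or 4X replicate 3, and that of VIT_02s0025g01430 also without 2X replicate 3, with limma adjusted p of up to 0.268 and 0.237. For VIT_03s0088g00810 the log2 fold change was 1.25 (SE 0.26, limma adjusted p = 0.0552), which passed the threshold only without 2X replicate 2 (limma adjusted p = 0.0177).

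None of the 5 genes of the chromosome 16 run was called, with limma adjusted p between 0.0515 and 0.849. The nearest was VIT_16s0013g00440, at a log2 fold change of 0.69 (SE 0.14). The gene with the largest gap, VIT_09s0018g00240, had 0.36 (SE 0.27, limma adjusted p = 0.501).

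**Figure D4:**
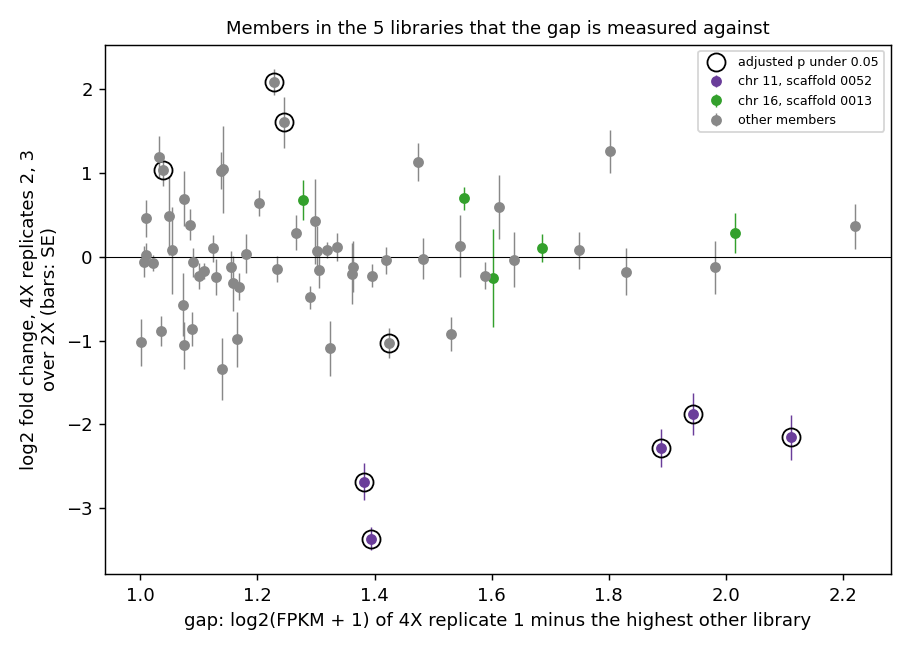
log2 fold change of 4X replicates 2 and 3 over 2X (vertical axis, bars are SE) against the gap of 4X replicate 1 over the highest other library on the log2 scale (horizontal axis) for the 67 genes, with rings at a limma adjusted p under 0.05. The 5 genes of chromosome 11, scaffold 0052, lie between -3.36 and -1.88, while the 5 of chromosome 16, scaffold 0013, lie between -0.26 and 0.69.

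With all 6 libraries in the model, 4X against 2X, the rule fixes much of the direction, and the result is given only as a description. limma called 0 of the 67 genes, where 0.0607% of all genes tested were called higher, 0.0276% lower and 0.0883% in either direction. Of the 67, 13 had an unadjusted limma p under 0.05, all of them higher. At that p, 1411 of the 18119 genes tested were higher and 1183 lower. Among the 67, the smallest adjusted p in this limma fit was 0.0715, at VIT_03s0063g01960. VIT_11s0052g01270, at a mean of 49.7 ± 79.9 FPKM in 4X against 46.2 ± 6.27 FPKM in 2X (SD, n = 3 each), had a log2 fold change of -1.71 (SE 1.27). At this gene the SD over the 4X libraries exceeded their mean.

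The libraries just below 4X replicate 1 were not evenly spread. The rule itself uses the highest of the other 5 libraries, so all genes tested are not a matched baseline. The shares are a description only, and neighbours in runs were counted as separate genes. Among the other 5, 2X replicate 2 was the highest in 38.8% of the 67 genes, against 14.4% of all genes tested. The lowest of the 5 was 2X replicate 3 in 41.8% (28.7% of all genes tested) and 4X replicate 2 in 35.8% (19.1%). The other 5 libraries lay within 2-fold of each other in 26 of the 67 genes (38.8%, against 81.2% of all genes tested). Most of the 67 genes thus spanned more than 2-fold even without 4X replicate 1.

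Genes grouped by hormone or by GO term were counted beside the 67, with the same limit that the study chose them on these libraries. Where genes were chosen as increased in 4X, a 4X library tends to be the highest. All genes tested are then not a matched baseline, and the shares below are a description only. Of 9 tested ABA genes, the 2 named HAV22A were in the set, and 4X replicate 1 was the highest library in 3. None of the 8 tested ethylene genes was in the set, although 4X replicate 1 was the highest library in 5 of them (62.5%, against 18.6% of all genes tested), with a median gap of 0.24 against -0.23 over all genes tested. GLIP2 and HCHIB, described above, were among those 5. The third example, VIT_14s0081g00030 (PR-4), a pathogenesis-related gene, had 230 FPKM in 4X replicate 1, 145 and 176 in 4X replicates 2 and 3, and 60.3, 104 and 70.6 in 2X. In 4X replicates 2 and 3 against 2X, limma called 1 of the 9 ABA genes and 2 of the 8 ethylene genes higher and none lower, where 1.02% of all genes tested were called higher and 3.14% lower. With all 6 libraries limma called 0 genes of either list, with 5 ABA and 6 ethylene genes at an unadjusted p under 0.05. Over all 18119 genes tested, 2594 had such a p. Of these, the ABA gene VIT_18s0001g10500 was lower in 4X (log2 fold change -0.67) and the others higher.

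Of 10 tested genes with lipase activity, also listed by the study as increased in 4X, 1 was in the set. 4X replicate 1 was the highest library in 7 (70.0%), a share that this choice of genes favours. VIT_14s0066g01820 stood for these, with 61.3 FPKM in 4X replicate 1, 37.2 and 31.4 in 4X replicates 2 and 3, and 14.03, 13.8 and 8.72 in 2X. limma called 4 of the 10 higher in 4X replicates 2 and 3 and 1 of the 10 with all 6 libraries, where 1.02% and 0.0607% of all genes tested were called higher. VIT_17s0000g07420, the one in the set, was not among the 4. Of 22 extracellular region genes, 5 were in the set, 3 of them from the chromosome 11 stretch. In 4X replicates 2 and 3 limma called 4 higher and 3 lower, where 3.14% of all genes tested were called lower. The 3 that fell were those of chromosome 11, although the study listed them as increased in 4X. With 4X replicate 1 included, their mean FPKM was higher in 4X than in 2X, as at VIT_11s0052g01200 (14.3 against 7.95). Their log2 fold changes over all 6 libraries stayed negative, between -0.77 and -0.50. Of 22 genes of immune system process, 2 were in the set and 3 were called higher. With all 6 libraries limma called 0 genes of these last lists, with 13 extracellular and 16 immune genes at an unadjusted p under 0.05. Of all 18119 genes tested, 2594 had such a p.

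Auxin and cytokinin genes had no gene in the set. The study listed them as decreased in the tetraploid on these same libraries, except for a cytokinin gene listed as increased. Such a choice favours calls of lower expression and makes a tetraploid library less likely to be the highest. All genes tested are thus not a matched baseline here either, and the counts are a description only. Of 12 tested auxin genes, 10 fell in 4X replicates 2 and 3 by limma, as did 2 of 3 cytokinin genes, where 3.14% of all genes tested were called lower. With all 6 libraries limma called 0 of the 15, although 9 auxin and 3 cytokinin genes had an unadjusted p under 0.05. Over all 18119 genes tested, 2594 had such a p. Of these auxin and cytokinin genes, VIT_18s0001g13200, a cytokinin gene, was higher in 4X and the others lower. Its log2 fold change was 0.73 with all 6 libraries and 1.01 in 4X replicates 2 and 3 against 2X. 4X replicate 1 was the highest library in none of the 15, which the choice of decreased genes favours in all but VIT_18s0001g13200. VIT_02s0154g00010 (SAUR), of a family of small auxin-induced genes, had 52.8 FPKM in 4X replicate 1, 15.3 and 18.0 in 4X replicates 2 and 3, and 53.3, 44.1 and 30.3 in 2X. There 4X replicate 1 lay within the range of 2X, and 4X replicates 2 and 3 lay below it.

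**Figure D5:**
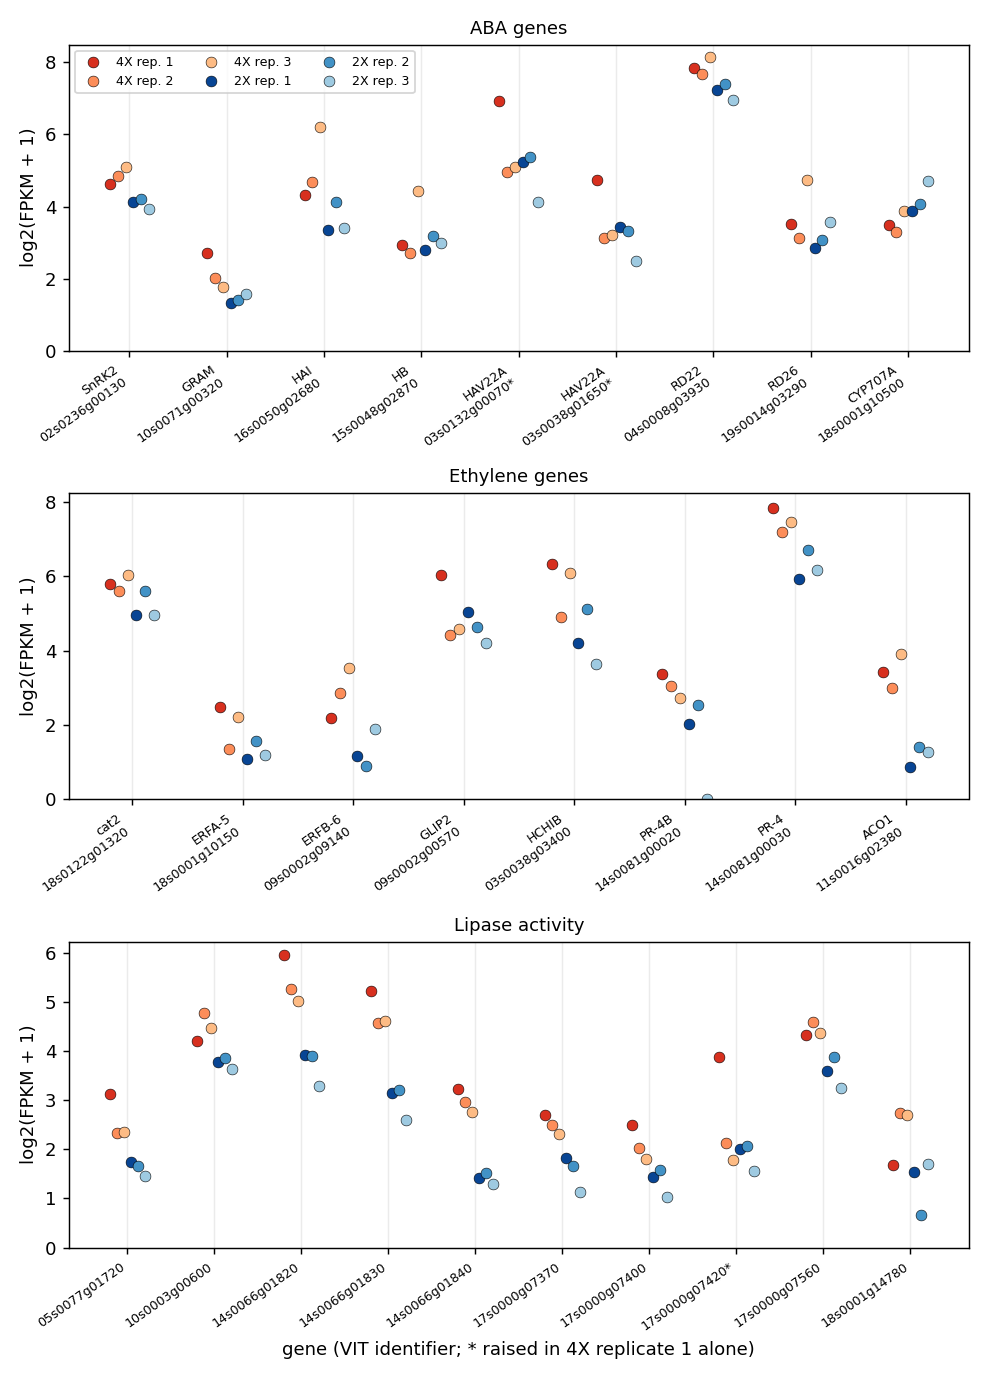
log2(FPKM + 1) of each library (vertical axis) for the tested ABA genes (top), ethylene genes (middle) and genes with lipase activity (bottom), with stars at the genes raised in 4X replicate 1 alone. 4X replicate 1 is the highest point in 3 of 9, 5 of 8 and 7 of 10 genes, and only 3 of these genes are starred.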

How the data were processed

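RNA from terminal buds was measured in 3 libraries of 4X and 3 of 2X, grouped by the ploidy in the sample labels. Reads were trimmed (FASTX-Toolkit) and aligned by the authors with TopHat2 2.0.14 and Bowtie2, against the Ensembl Plants genome of V. vinifera, and Cufflinks 2.2.1 was their tool for expression differences. The authors deposited FPKM per gene and library, and 0 columns of values were left out. The genome build, annotation version, strand handling, treatment of multiply mapped reads and scaling between libraries are not given in the sources used here, so neighbouring near-identical copies may share reads.

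Genes averaging 1 FPKM or more over the 6 libraries were fitted on log2(FPKM + 1) in R 4.3.3 by limma 3.58.1, with a variance trend, two-sided tests and Benjamini-Hochberg adjustment over all genes tested, and called at an adjusted p under 0.05. p-values cover the spread between these pools only. Counting and plots used Python 3.11.15, pandas 2.3.3, numpy 2.4.6 and matplotlib 3.10.9. On simulated data with 18119 genes, 200 of them changed by 2 on the log2 scale, the 5-library design recovered 91.5% of changed genes and 3.53% of calls were false. The changed genes were drawn from those with a mean over 2 on the log2 scale, and errors were normal and independent between genes. These figures therefore do not cover smaller changes, lower levels or neighbours that move together. Alternatives changed the pseudocount, filter, gap, reach of a run, scaling, trend, replicate block and libraries used.

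The set and the lists were chosen with earlier results of these data known. Named genes are the 20 with the largest gap, up to 3 of each run, 3 on each side of the limit, those with a name in the primer table, 3 with the largest fold change in each direction and 5 with the highest FPKM. Others were named for their GO terms, runs, calls or lists after their values were seen. Names and GO terms come from the study's supplementary tables. The reference table matched 0 identifiers, so planned lists by product name, markers and sequences were not used here.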

Additional observations from a re-analysis of the deposited data

How the results depend on the processing

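The set of 67 genes held 17 genes with a gap over 1.5 and grew to 300 with a gap over 0.5, which also brought 66 genes into runs. Taking adjacent loci only left 7 genes in runs. Under all other settings tried the set held between 64 and 92 genes, and leaving out each other library in turn gave 72 to 92, since dropping a library can only widen a gap. For 4X replicates 2 and 3 against 2X, a pseudocount of 0.1 called 1 of the 67 genes higher. Without a filter on low values, 94 genes were called higher and 313 lower, with 1 of the 67 higher. Leaving out each library in turn gave 16 to 268 genes higher and 39 to 504 lower, of them 0 to 2 and 1 to 10 of the 67. Both low counts of the 67 came without 4X replicate 2 and likewise without 4X replicate 3, which leave 1 library of 4X that is assumed to vary like the others. With all 6 libraries, no filter gave 0 genes called in either direction by limma (3142 at an unadjusted p under 0.05), and leaving out each library gave 0 to 185 higher and 0 to 569 lower, of them 0 to 3 and 0 to 6 of the 67, each highest without 4X replicate 1.

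A replicate block, with the replicate number in the limma model, called 0 genes higher and 0 lower in both comparisons, 0 of the 67 among them, with 2704 and 2290 genes at an unadjusted p under 0.05. In the comparison without 4X replicate 1, the block also left out 2X replicate 1, which has no partner there. The loss of calls in that comparison can therefore not be put down to the block alone. Deviations of equally numbered 4X and 2X libraries had correlations of -0.01, -0.05 and 0.09 across genes, so the numbers were not taken to pair the pools. The log2 fold changes of 10 named genes were followed through the alternatives, and none changed sign. These genes were called or had among the largest changes, and the other named genes were not followed. The 36 gaps followed also kept their sign. They started near or above the limit of 1, and leaving out a library can only widen a gap. A change of sign could therefore hardly occur, and its absence is not a test of the gaps. The alternatives that left out constant genes, or filtered on the mean of the 5 libraries, were chosen after seeing the data and kept all counts within 1.5 times. The cause of these differences was not tested. Depth per value is unknown.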

Other observations

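The genes left out for a listed 0 were also high in 4X replicate 1. VIT_04s0079g00510 had 41.4 FPKM there, VIT_05s0049g02150 had 30.4 and VIT_09s0018g02000 had 11.96, and all were listed at 0 in the other 5 libraries. VIT_18s0001g03030 had 10.7 FPKM in 4X replicate 1 and 3.85 in 2X replicate 2, and was listed at 0 in the others. An exact 0 in a table without counts can be a failed estimate, so no fold is given.

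In the opposite direction, 5 genes were lowest in 4X replicate 1 alone. VIT_18s0072g01190 was the farthest below, with 2.75 FPKM in 4X replicate 1, 17.3 and 19.5 in 4X replicates 2 and 3, and 15.6, 21.2 and 11.7 in 2X. VIT_05s0094g00210 had 1.95 FPKM in 4X replicate 1, 11.02 and 12.3 in 4X replicates 2 and 3, and 5.34, 11.7 and 6.51 in 2X. The others were VIT_03s0063g02620, VIT_05s0020g04050 and VIT_08s0040g00960. No 2 of them lay on the same scaffold within 5 loci.

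With a reach of 10 loci, 18 of the 67 genes lay in runs, and the added pairs were VIT_02s0025g01240 with VIT_02s0025g01300 and VIT_04s0008g07140 with VIT_04s0008g07220. With a gap over 0.5, the chromosome 11 stretch became a single run of 8 genes.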
